A study of Mus musculus with 24 samples.

Results

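The aortas compared here came from BAPN-treated mice of 2 genotypes: 6 libraries from ATAD3A knock-in mice given BAPN (KI-BAPN) and 7 libraries from wild-type mice given BAPN (WT-BAPN), chosen by their genotype and treatment labels out of 24 libraries in all. The other libraries, 5 from knock-in mice (KI) and 6 from wild-type mice (WT) on plain drinking water, are used only to estimate the spread and to ask whether the genotype difference depended on BAPN. All mice were male and were kept 1 to a cage. BAPN mice drank 0.5% (w/v) β-aminopropionitrile for 28 days, starting at 3 weeks of age, and mice of all groups gave the whole aorta from its ascending part to the abdominal bifurcation. The labels name the knock-in allele only as ATAD3A-KI and do not give the promoter or the cells that express it. The comparison asks what a raised level of ATAD3A goes with in an aorta exposed to an agent that produces aneurysm and dissection.

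ATAD3A is an AAA ATPase of mitochondria that spans the inner membrane, reaches towards the outer membrane and is known for roles in nucleoid organisation, cristae and contacts with other organelles. BAPN is an irreversible inhibitor of lysyl oxidases, the enzymes that cross-link collagen and elastin, and given to young growing mice it weakens the aortic wall. The mitochondrial systems that could be read from mRNA include the respiratory chain, whose subunits are encoded by nuclear and mitochondrial genes, and lipoylation, the attachment of lipoic acid to the dehydrogenase complexes of mitochondria.

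RNA was poly(A)-selected and sequenced, and the deposited values are read counts per gene. KI-BAPN libraries held 17952806 to 26490651 counts and WT-BAPN libraries held 13908765 to 22412134. Smooth muscle genes were abundant in all 13 libraries: the summed level of 23 contractile genes was between 18600 and 61400 CPM, which are counts scaled to library size, in KI-BAPN and between 25500 and 62800 CPM in WT-BAPN. Some libraries stood apart from their group. The libraries KI-BAPN 3 and KI-BAPN 2 were the highest of the 13 in short genes: genes under 1 kb in the deposited length column lay 0.88 and 0.44 log2 units above the 13-library mean in these libraries, and 0.34 units below it in KI-BAPN 4. WT-BAPN 7 lay 0.26 units above it and WT-BAPN 3, the lowest, 0.43 units below it. KI-BAPN 3 and KI-BAPN 2 were also the highest in genes of fat cells, with mean log2 CPM of 7.90 and 6.93 for 23 listed white and brown adipocyte genes. WT-BAPN 7 was the lowest for that list, at 2.72, and the highest for 25 mitosis and cell cycle genes, at 4.92. Main counts are given with and without these libraries below. The labels give no extraction or sequencing batch. In whole tissue, fewer cells of a type and less RNA per cell cannot be told apart.

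**Figure D1:**
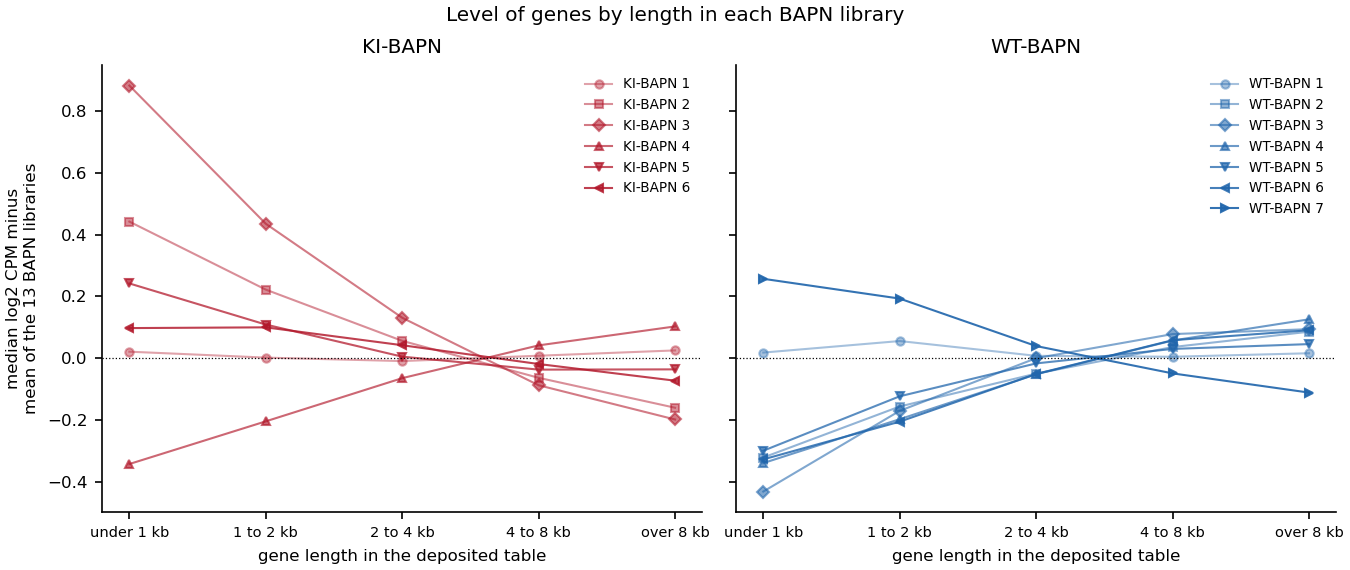
Median log2 CPM of genes in each of 5 length classes (x axis), relative to the mean of the 13 BAPN libraries (y axis, log2 units), 1 line per library, KI-BAPN left and WT-BAPN right. KI-BAPN 3 reached 0.88 for genes under 1 kb, KI-BAPN 4 was at -0.34, and 5 of the 7 WT-BAPN libraries lay between -0.43 and -0.30.

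Atad3a (ENSMUSG00000029036, chromosome 4) was the only gene to pass the edgeR test between the genotypes on BAPN, and it was higher in the knock-in. Its level was 535, 501, 231, 1038, 645 and 575 CPM in KI-BAPN libraries 1 to 6. In WT-BAPN it had a lowest value of 24.9, a median of 32.9 and a highest of 44.8 CPM. The groups did not overlap, and KI-BAPN 3, the lowest knock-in library, was still above every WT-BAPN library. The log2 difference was 4.14 ± 0.30 (SE; edgeR quasi-likelihood test, adjusted p = 1.37e-08), a ratio of mean CPM of 17.7. An exact two-sided permutation test over the 13 libraries gave p = 0.000583, the smallest that groups of 6 and 7 allow. Among KI-BAPN libraries the level varied by its SD of 262 CPM around a mean of 587 CPM, against 7.25 CPM around a mean of 33.2 CPM in WT-BAPN (n = 6 and 7). On plain water the same contrast was 4.75 ± 0.33, and the difference between both contrasts, -0.60 ± 0.39, did not pass (adjusted p = 0.448). The counts alone do not tell transcripts of the inserted allele from those of the native gene.

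Of 14216 genes tested out of 21959 in the deposited table, Atad3a was the only one to pass an adjusted p of 0.05 in the edgeR test, or 0.00703% of the genes tested. The next smallest adjusted p was 0.243. At an unadjusted p under 0.05, 1033 genes were higher in KI-BAPN, which is 7.27% of those tested, and 950 were lower, which is 6.68%. All KI-BAPN libraries lay above all WT-BAPN libraries for 15 genes, Atad3a included, or 0.106% of those tested, and below them for 16 genes, or 0.113%. The median log2 difference over all genes was -0.02.

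The genes with the smallest p after Atad3a did not pass the test and are given as values, chosen among genes of at least 5 CPM in the higher group whose libraries of each group lay beyond the other group's median. All of those given here had an adjusted p of 0.243. Khk, the ketohexokinase that phosphorylates fructose, had a lowest, median and highest level of 13.9, 19.8 and 31.3 CPM in KI-BAPN, against 7.07, 11.6 and 13.6 CPM in WT-BAPN. These groups did not overlap, and the log2 difference was 0.97 ± 0.22. Rpp40, a protein subunit of the tRNA-processing ribonuclease P, also had no overlap, at 0.60 ± 0.15. The largest differences among the higher genes were those of respiratory chain subunits: Atp5o, a stalk subunit of ATP synthase, had 9.17, 21.3 and 57.0 CPM in KI-BAPN against 3.00, 6.13 and 13.2 CPM in WT-BAPN (1.70 ± 0.44). Ndufb9 of complex I stood at 30.2, 51.6 and 158 CPM in KI-BAPN and 12.8, 27.4 and 39.6 CPM in WT-BAPN (1.43 ± 0.37). The highest library for both genes was KI-BAPN 3. Other genes of mitochondria in this set were Acot13, an acyl-CoA thioesterase (0.89 ± 0.21), Fmc1, an ATP synthase assembly factor known from yeast (0.89 ± 0.21), and Atp5l, a membrane subunit of ATP synthase (0.90 ± 0.22). Txnl4b, a thioredoxin-like protein, and Phf20, a chromatin reader, stood at 0.80 ± 0.19 and 0.56 ± 0.14.

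Among genes with lower values in KI-BAPN, Cdk2, the kinase that acts at the start of S phase, had 14.2, 19.5 and 26.2 CPM in KI-BAPN against 22.7, 33 and 36.3 CPM in WT-BAPN. Its log2 difference was -0.60 ± 0.13, and 2 WT-BAPN libraries lay within the KI-BAPN range. Reep4, which clears endoplasmic reticulum from chromosomes in mitosis, was the only gene of this set without overlap: 9.5, 16.7 and 20.9 CPM in KI-BAPN against 21.2, 25.9 and 31.1 CPM in WT-BAPN (-0.69 ± 0.16). Nde1, a dynein regulator with a role in mitosis, stood at -0.44 ± 0.10, and Nsd2, a histone methyltransferase, at -0.53 ± 0.12. Myo19, the myosin that moves mitochondria along actin, had a median of 6.36 CPM in KI-BAPN and 10.9 CPM in WT-BAPN (-0.76 ± 0.17). The remaining genes were Ankib1, a ubiquitin ligase, with -0.57 ± 0.12, Chrnb1, a subunit of the muscle acetylcholine receptor, with -0.74 ± 0.17, and Rin1, a Ras effector, with -0.77 ± 0.20. Eogt, which adds a sugar to EGF-like domains of extracellular proteins, and Slc35a2, a Golgi sugar transporter, had -0.65 ± 0.16 and -0.50 ± 0.13. Ap4e1, a subunit of the AP-4 sorting adaptor, and Tmem181a had -0.59 ± 0.15 and -0.44 ± 0.11. On plain water Ankib1, Nsd2, Chrnb1 and Rin1 had differences of the same sign, at -0.46, -0.43, -0.54 and -1.01, with adjusted p between 0.0610 and 0.147, while Cdk2, Eogt and Slc35a2 were at -0.02, -0.06 and -0.03.

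**Figure D2:**
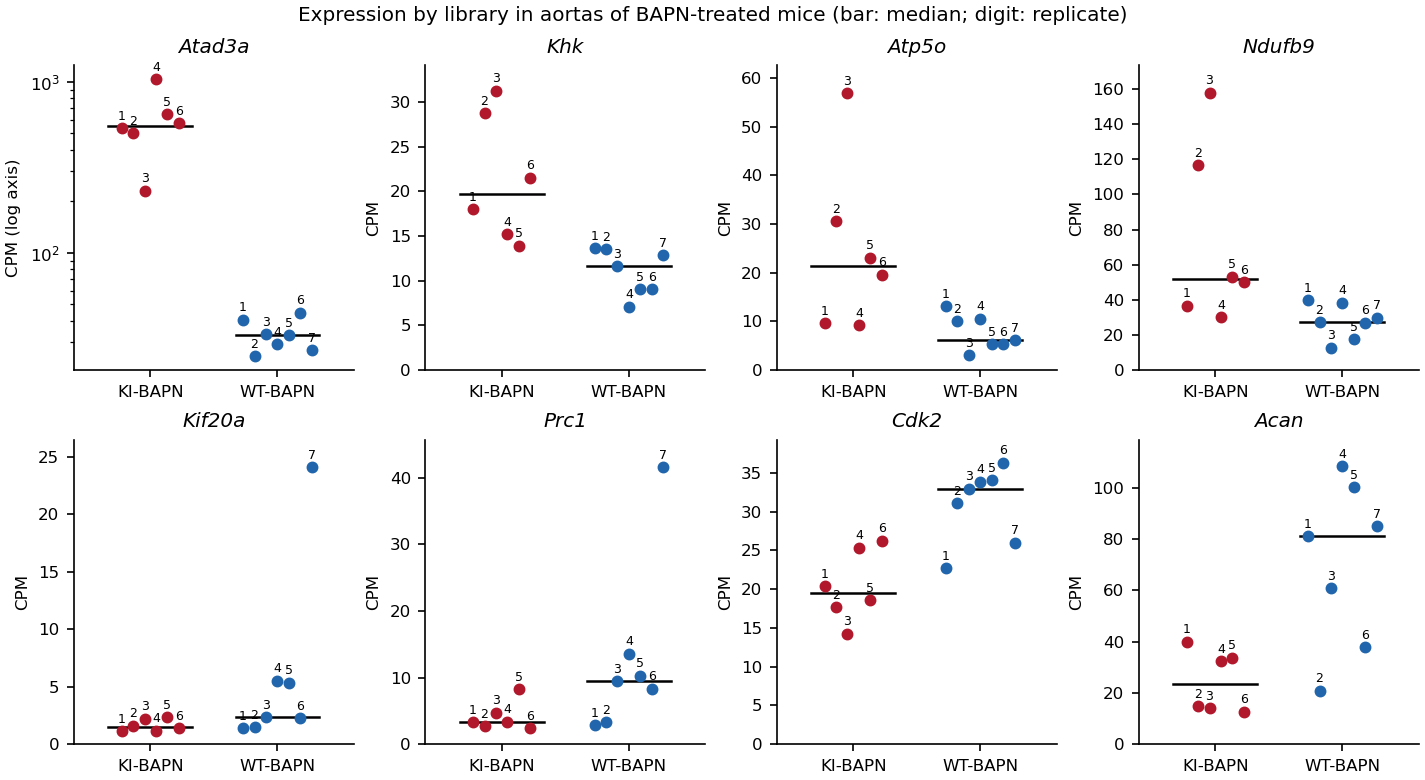
CPM of 8 genes in each BAPN library (digits are replicate numbers, bars are group medians), KI-BAPN left of WT-BAPN; the axis of Atad3a is logarithmic and the others start at 0. Atad3a and Khk have no overlap between groups, KI-BAPN 3 is the highest library for Atp5o and Ndufb9, and WT-BAPN 7 is the highest for Kif20a and Prc1, at 24.1 and 41.6 CPM.

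Gene lists are described by how many members had an unadjusted p under 0.05 and by the median log2 difference. Counts of the fit on all libraries are to be read against the 7.27% of all genes higher and 6.68% lower at that p. These shares do not serve for other settings, where the count over all genes changed too. It was 1983 genes with all libraries. With single BAPN libraries left out it was between 1001, without KI-BAPN 3, and 2879, without KI-BAPN 4, and further counts are given at the end. No such count is given for settings with covariates, a length offset or libraries of both groups left out together. In those settings, a change of a list's count cannot be told from a change over all genes. The nuclear genes of the respiratory chain had higher values in KI-BAPN as a whole list, although no member passed the test across all genes. Of 36 tested subunits of complex I, 34 were higher at an unadjusted p under 0.05 and none lower, and the median was 0.70. Ndufa6 had 115, 149 and 262 CPM in KI-BAPN against 87.7, 101 and 142 CPM in WT-BAPN (0.71 ± 0.19), Ndufa5 stood at 1.03 ± 0.27 and Ndufb4 at 0.88 ± 0.25, each with an adjusted p of 0.243. Of 38 nuclear genes of complexes II to V, 30 were higher and none lower, with a median of 0.71, among them Atp5k of ATP synthase (1.38 ± 0.38) and Uqcr10 of complex III (1.03 ± 0.29). Of the proteins of the cytosolic ribosome, 38 of 45 were higher, none lower, with a median of 0.64. Rpl19 had 158, 374 and 705 CPM in KI-BAPN against 81.3, 137 and 286 CPM in WT-BAPN (1.14 ± 0.30). Ribosomal protein genes and several of the small respiratory subunits have processed copies in the genome, so that their counts depend on how reads were assigned.

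These 3 lists moved with single libraries. For complex I the mean log2 CPM was 6.17, 7.13, 7.28, 5.95, 6.46 and 6.25 in KI-BAPN libraries 1 to 6, against a lowest of 5.62, a median of 5.82 and a highest of 6.5 in WT-BAPN; the highest WT-BAPN library was number 7. Without KI-BAPN 2 and 3, 4 of the 36 complex I genes were higher at an unadjusted p under 0.05 and the median was 0.29, while for complexes II to V the count was 2 and the median 0.24, and for the cytosolic ribosome 1 and 0.34. Without KI-BAPN 3 alone the counts were 24, 17 and 10, and without KI-BAPN 2 alone the count for complex I was 22. Without WT-BAPN 7 they were 33, 35 and 44. Leaving out KI-BAPN 2, KI-BAPN 3 and WT-BAPN 7 together gave 20 of 36, 10 of 38 and 37 of 45, with medians of 0.45, 0.37 and 0.55. With the adipocyte, skeletal muscle and mesothelium scores as covariates the counts were 8, 2 and 27. The adipocyte score itself includes Cox7a1 and Cox8b, genes of complex IV subunits, so this setting cannot tell fat from the respiratory chain. With an offset for gene length the counts were 28, 23 and 30. The counts of both settings have no count over all genes beside them. The list medians were 0.443, 0.341 and 0.665 with the scores as covariates, and 0.501, 0.47 and 0.494 with the length offset. Short genes as a class were higher in KI-BAPN: the median log2 difference was 0.45 over 290 genes under 1 kb and -0.10 over 2550 genes over 8 kb, and 35.2% of the genes under 1 kb were higher at an unadjusted p under 0.05. The part of gene length and fat in the difference of these lists was not tested.

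**Figure D3:**
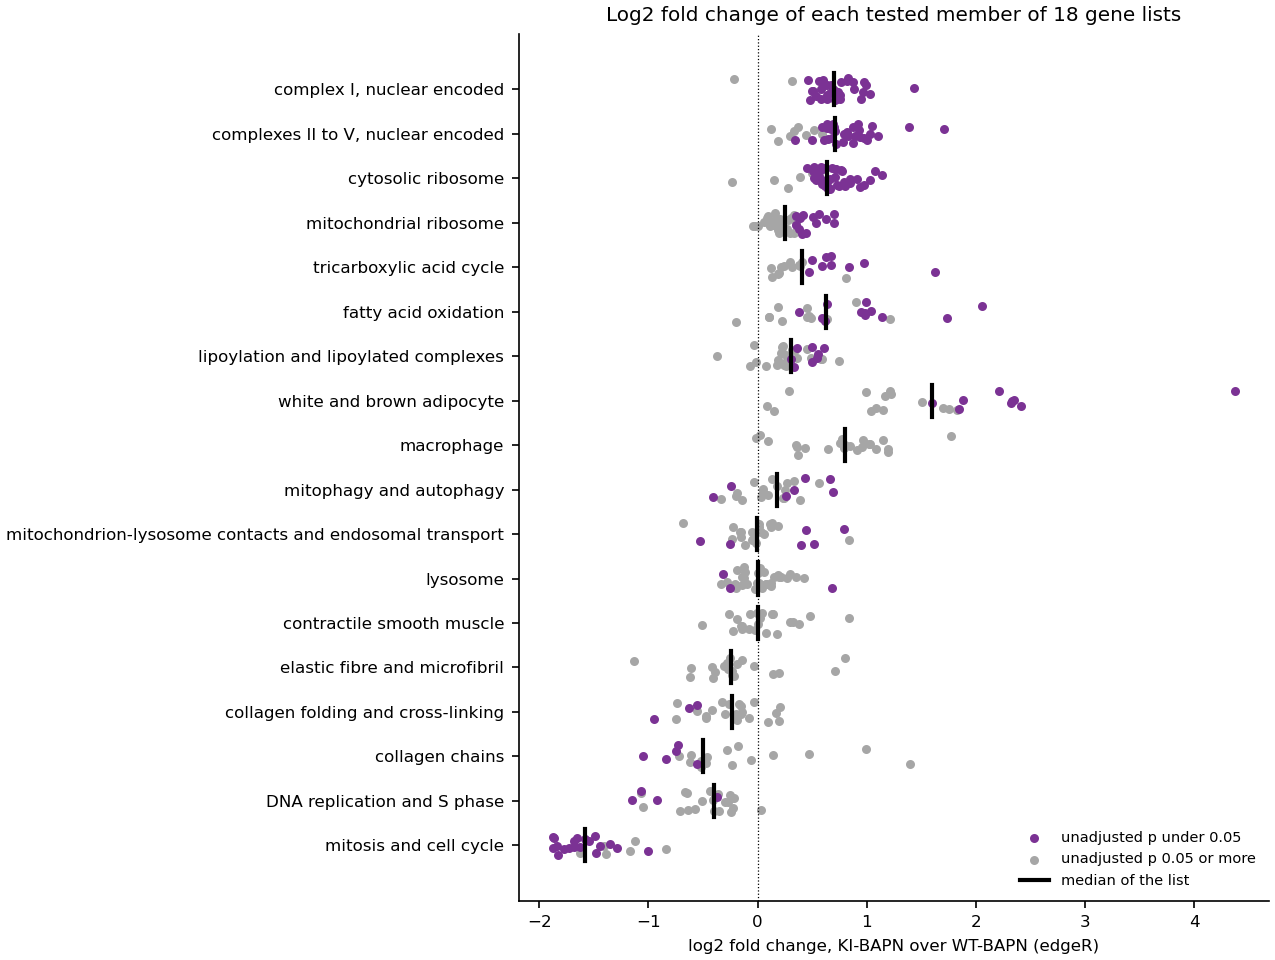
Log2 fold change of KI-BAPN over WT-BAPN (x axis, edgeR) for each tested member of 18 gene lists (rows), with bars at the list medians and coloured points for an unadjusted p under 0.05. The medians are 0.70 for complex I, 0.64 for the cytosolic ribosome, 1.60 for adipocyte genes, -0.50 for collagen chains and -1.58 for mitosis genes; Atad3a is in none of these lists.

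Further mitochondrial lists had smaller differences of the same sign. All 13 tested mRNAs encoded by mitochondrial DNA had positive differences, with a median of 0.31, but 2 had an unadjusted p under 0.05, and these were mt-Co2 (1.08 ± 0.47, adjusted p = 0.317) and mt-Nd6 (0.93 ± 0.43, adjusted p = 0.338). Reads from mt-Nd6 and from the genes opposite it cannot be told apart without strand. The mitochondrially encoded genes are short, with a median length of 784 bases. Over all genes under 1 kb the median was 0.45, and 35.2% were higher at an unadjusted p under 0.05, against 15.4% of this list. Among 40 proteins of the mitochondrial ribosome 13 were higher and none lower, with a median of 0.25; Mrps35 had no overlap between groups, with 20.4, 23.6 and 36.5 CPM in KI-BAPN against 15.9, 18.4 and 19.96 CPM in WT-BAPN (0.53 ± 0.16). Of 21 genes of the tricarboxylic acid cycle 9 were higher, with Sdhb, the iron-sulphur subunit of succinate dehydrogenase, at 0.97 ± 0.32 and Sucla2, a succinyl-CoA ligase subunit, at 0.84 ± 0.30. Of 24 genes of fatty acid oxidation 12 were higher, among them Acaa2, the last enzyme of the cycle, at 1.73 ± 0.54, Hadh at 1.04 ± 0.34, and Etfb, which passes electrons on to the respiratory chain, at 2.05 ± 0.69. Without KI-BAPN 2 and 3 the counts were 1 of 40, 0 of 21 and 0 of 24, and none of the mitochondrially encoded genes was left at that p.

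The study's title names lipoylation and contacts of mitochondria with lysosomes, and lists for both were looked up. Of 32 tested genes of lipoylation and lipoylated complexes 8 were higher at an unadjusted p under 0.05 and none lower, with a median of 0.31. Bola3, which is needed to deliver iron-sulphur clusters to lipoyl synthase, had 30.4, 42.4 and 75.8 CPM in KI-BAPN against 21.2, 29.4 and 44.0 CPM in WT-BAPN (0.61 ± 0.19, adjusted p = 0.243). Cbr4 and Mcat, both enzymes of mitochondrial fatty acid synthesis, which makes the precursor of lipoic acid, stood at 0.50 ± 0.18 and 0.54 ± 0.22. Dbt, the lipoylated E2 subunit of the branched-chain complex, stood at 0.36 ± 0.13. Without KI-BAPN 3 the count was 1, and without KI-BAPN 2 and 3 it was 0, with a median of 0.06.

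Genes of contacts and of endosomal transport showed no common direction: 4 of 26 were higher, 2 lower, and the median was -0.00. Lrrk2, a kinase recruited to stressed lysosomes, had 10.4, 16.2 and 21.7 CPM in KI-BAPN against 15.6, 23.5 and 27.3 CPM in WT-BAPN (-0.52 ± 0.15, adjusted p = 0.243). Mcoln1, the lysosomal calcium channel, stood at -0.26 ± 0.11, Tbc1d5, a Rab7 GTPase-activating protein, at 0.40 ± 0.14, and Npc2, the soluble cholesterol carrier of lysosomes, at 0.79 ± 0.32. Of 36 lysosome genes 1 was higher, the protease gene Ctsd (0.68 ± 0.25), and 2 were lower, among them the sialidase gene Neu1 (-0.32 ± 0.12), with a median of 0.01. Of 25 genes of mitophagy and autophagy 5 were higher and 2 lower, with a median of 0.18. Pink1, the kinase that marks damaged mitochondria, had 195, 246 and 332 CPM in KI-BAPN against 118, 153 and 214 CPM in WT-BAPN (0.67 ± 0.19, adjusted p = 0.243). Map1lc3a of the LC3 family stood at 0.69 ± 0.24 and Tbk1, a kinase of autophagy receptors, at -0.41 ± 0.12. Without KI-BAPN 3, none of the contact genes was higher and 3 of the mitophagy genes were.

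In the list of mitochondrial dynamics, cristae and nucleoid, to which Atad3a belongs, 7 of 29 genes were higher and 1 lower, with a median of 0.18. Beside Atad3a, these included Samm50 of the outer membrane assembly machinery (0.59 ± 0.21), and Chchd6 and Micos13 of the MICOS complex that shapes cristae (0.93 ± 0.35 and 0.80 ± 0.30), none of which passed. Of 21 mitochondrial chaperones and proteases 3 were higher and 2 lower; Clpp, a matrix protease, stood at 0.62 ± 0.19. With KI-BAPN 2 and 3 left out, 1 of 29 genes of the dynamics list, Atad3a itself, was higher, with a median of 0.03, and none of the chaperones and proteases was; without KI-BAPN 3 alone these counts were 2 and 1. Of 23 genes of the integrated stress response, which mitochondrial damage can switch on, 2 were higher and 1 lower. These are 8.7% and 4.35%, against 7.27% and 6.68% of all genes. Atf5 stood at 0.60 ± 0.19 and Trib3 at 1.03 ± 0.43. Gdf15, a secreted stress signal, had 0.678, 0.845 and 1.83 CPM in KI-BAPN against 1.14, 1.74 and 15.2 CPM in WT-BAPN, a log2 difference of -1.73 ± 0.55 (adjusted p = 0.243) in which WT-BAPN 5 was far above all other libraries; without it the difference was -0.63.

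Genes of the aortic wall's matrix had lower medians in KI-BAPN, with none past the test. Of 20 collagen chains 5 were lower at an unadjusted p under 0.05 and none higher, with a median of -0.50. These are long genes, with a median length of 7648.5 bases. At that p, 8.19% of all genes of 4 to 8 kb were lower and 4.55% higher. For genes over 8 kb these shares were 10.5% and 3.49%. Col5a2, a chain of the fibril-organising collagen V, had 267, 447 and 670 CPM in KI-BAPN against 632, 927 and 971 CPM in WT-BAPN (-0.84 ± 0.27, adjusted p = 0.243), so that 2 KI-BAPN libraries reached the WT-BAPN range. Its partner chain Col5a1 stood at -0.75 ± 0.33, Col6a3 of the microfibrillar collagen VI at -0.73 ± 0.28 and Col15a1, a basement membrane collagen, at -1.05 ± 0.43. Of 24 genes of collagen folding and cross-linking 3 were lower: Plod2, a lysyl hydroxylase, at -0.94 ± 0.32, Bmp1, the procollagen C-proteinase, at -0.62 ± 0.26, and P3h1, a prolyl hydroxylase, at -0.56 ± 0.25. Without KI-BAPN 2 and 3 the counts were 1 of 20 collagen chains, with a median of -0.34, and 0 of 24 folding genes.

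Of 20 genes of elastic fibres and microfibrils none had an unadjusted p under 0.05. Eln, which encodes elastin, had 3580, 5015 and 16632 CPM in KI-BAPN against 12447, 14838 and 30382 CPM in WT-BAPN, and its difference of -1.13 ± 0.59 did not pass (adjusted p = 0.395) although the medians lay far apart. Among genes of injured artery, Acan, the large proteoglycan aggrecan, had 12.7, 23.6 and 39.9 CPM in KI-BAPN against 20.9, 81.2 and 108 CPM in WT-BAPN (-1.52 ± 0.37, adjusted p = 0.243). Postn, a matricellular protein of remodelling vessels, stood at -0.79 ± 0.42 (adjusted p = 0.400). Spp1, which encodes osteopontin, had a median of 20.7 CPM and a highest of 97.8 CPM in KI-BAPN, against a median of 3.11 CPM and a highest of 1075 CPM in WT-BAPN; its fitted difference of -2.90 ± 1.34 thus has the opposite sign to that of the medians. Comp, a cartilage matrix protein, stood at 1.2 ± 0.48, with 352 CPM in KI-BAPN 3, and at 0.12 without that library. Of 24 matrix proteases and inhibitors 2 were higher, or 8.33%, the aggrecanases Adamts5 (0.65 ± 0.24) and Adamts15 (0.73 ± 0.30). Adamts5 stood at 0.39 without KI-BAPN 3, and Adamts15 at 0.30 without KI-BAPN 6. Of 22 genes of TGF-beta signalling 1 was higher, Tgfbr3 (0.52 ± 0.21), and 1 lower, Skil (-0.46 ± 0.19), or 4.55% each. Over all genes 7.27% were higher and 6.68% lower at an unadjusted p under 0.05. None of 23 contractile smooth muscle genes had an unadjusted p under 0.05, their median was 0.00, and their differences ran between -0.51 and 0.83, the highest being that of Des, which encodes desmin.

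Genes of dividing cells had the lowest median of the lists described. All 25 mitosis and cell cycle genes had negative differences, with a median of -1.58, and 19 of them had an unadjusted p under 0.05; none passed the test. Kif20a, a kinesin of the late spindle, had 1.15, 1.5 and 2.37 CPM in KI-BAPN against 1.40, 2.32 and 24.1 CPM in WT-BAPN (-1.87 ± 0.53, adjusted p = 0.243). Prc1, which bundles the microtubules of the central spindle, had 2.40, 3.34 and 8.28 CPM in KI-BAPN against 2.89, 9.42 and 41.6 CPM in WT-BAPN (-1.63 ± 0.49, adjusted p = 0.243). Kif11, the motor that separates spindle poles, stood at -1.73 ± 0.57 and Ccnb2, a mitotic cyclin, at -1.77 ± 0.60. The mean log2 CPM of the list was 1.27, 1.03, 2.49, 0.92, 2.69 and 1.01 in KI-BAPN libraries 1 to 6, and 0.75, 1.55, 2.39, 3.23, 3.67, 2.43 and 4.92 in WT-BAPN libraries 1 to 7. The groups thus overlapped, since WT-BAPN 1 was the lowest of all and 4 of the 6 KI-BAPN libraries lay below 6 of the 7 WT-BAPN libraries. Without WT-BAPN 7, 3 of the 25 genes had an unadjusted p under 0.05 and the median was -0.87. Without KI-BAPN 2 and 3 the count was 14 with a median of -1.69, and with tissue scores as covariates it was 4 with a median of -1.22. Of 26 genes of DNA replication and S phase 4 were lower, with a median of -0.40, among them Tk1 (thymidine kinase, -0.92 ± 0.30), Mcm10 (-1.07 ± 0.46) and Rrm2 (-1.15 ± 0.51), and without WT-BAPN 7 the count was 1.

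Promoter sequences of mitosis genes are shown as a description of the list, whose promoters share letters. In the RefSeq promoter table of GRCm38.p6, which covers 250 bases before to 50 bases after the start, 20 of the 25 genes had an entry. The cell cycle homology element, searched as TTTGAA on both strands, was found in 15 of the 20, or 75.0%, and in 12.0% of the promoters of 11176 tested genes. The CCAAT box, searched as CCAAT on both strands, was found in 18 of the 20, or 90.0%, and in 38.4% of all. Both were present in 75.0% and in 4.97%. These elements are known as binding sites of the DREAM and NF-Y complexes in cell cycle genes. The list was chosen as cell cycle genes, so these shares say nothing on the genotype difference. A match is a description of the letters. The promoter of Kif20a is not printed. The promoters of Prc1 (chr7:80294201-80294500, plus strand), Kif11 (chr19:37376132-37376431, plus strand) and Ccnb2 (chr9:70421505-70421804, minus strand) are printed 5′ to 3′ with matches on either strand in capitals.
Prc1: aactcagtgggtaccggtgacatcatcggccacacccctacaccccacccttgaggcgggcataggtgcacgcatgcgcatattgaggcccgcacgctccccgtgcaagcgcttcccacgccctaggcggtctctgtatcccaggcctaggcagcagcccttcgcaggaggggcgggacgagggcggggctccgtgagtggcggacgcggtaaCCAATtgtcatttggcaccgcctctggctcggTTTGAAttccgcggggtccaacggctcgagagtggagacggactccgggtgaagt
Kif11: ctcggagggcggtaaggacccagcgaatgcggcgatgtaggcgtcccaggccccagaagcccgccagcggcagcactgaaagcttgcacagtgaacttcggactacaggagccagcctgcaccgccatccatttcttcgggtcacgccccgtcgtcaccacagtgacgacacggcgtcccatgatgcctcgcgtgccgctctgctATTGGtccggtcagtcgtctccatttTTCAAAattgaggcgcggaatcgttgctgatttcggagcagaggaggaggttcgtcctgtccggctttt
Ccnb2: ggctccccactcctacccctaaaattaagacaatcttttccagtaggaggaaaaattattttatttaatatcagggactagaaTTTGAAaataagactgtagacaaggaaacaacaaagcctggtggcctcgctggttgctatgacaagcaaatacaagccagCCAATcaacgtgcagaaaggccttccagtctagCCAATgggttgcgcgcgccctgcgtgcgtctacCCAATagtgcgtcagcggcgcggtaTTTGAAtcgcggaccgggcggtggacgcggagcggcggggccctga
Prc1 and Kif11 each hold 1 match of each element, those of Kif11 on the opposite strand, and Ccnb2 holds 2 of the cell cycle homology element and 3 CCAAT boxes.

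Genes of fat cells had higher values in KI-BAPN, with a wide spread between libraries. All 23 white and brown adipocyte genes had positive differences, with a median of 1.60, and 9 had an unadjusted p under 0.05. Lep, which encodes leptin, had 0.0790, 4.45 and 44.4 CPM in KI-BAPN against 0, 0.341 and 1.85 CPM in WT-BAPN, and Cidea, a lipid droplet protein, had 29.996, 82.3 and 529 CPM in KI-BAPN against 17.7, 26.8 and 108 CPM in WT-BAPN (2.33 ± 0.70). Retn and Cox7a1, the genes of resistin and of a subunit of complex IV, stood at 2.21 ± 0.85 and 2.41 ± 0.83. The summed level of the 23 genes was between 1840 and 23900 CPM in KI-BAPN and between 828 and 7600 CPM in WT-BAPN. No marker was at 0 in all libraries of a group. Without KI-BAPN 2 and 3 no member had an unadjusted p under 0.05 and the median was 0.30. Both libraries were picked as the highest in this list and in short genes, so a fall of this list without them was bound to follow. Of 24 genes of cholesterol and fatty acid synthesis 9 were higher, with a median of 0.09, among them Acaca (1.02 ± 0.32) and Scd1 (2.25 ± 0.74), a desaturase with 7970 CPM in KI-BAPN 3, and without KI-BAPN 2 and 3 the count was 0.

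Macrophage genes had a median difference of 0.80, with 22 of 23 positive and none at an unadjusted p under 0.05; the summed level was between 329 and 3330 CPM in KI-BAPN and between 176 and 1570 CPM in WT-BAPN. C1qa, a complement component of macrophages, had 31.7, 54.7 and 412 CPM in KI-BAPN against 13.8, 37.9 and 149 CPM in WT-BAPN (1.2 ± 0.67), and Folr2, a marker of resident macrophages, stood at 1.19 ± 0.61. Without KI-BAPN 3 the median was 0.12. Of 25 interferon-stimulated genes 2 were lower, with a median of -0.45: Stat2 at -1.16 ± 0.49 and Gbp3 at -1.59 ± 0.75. For both genes the highest library was WT-BAPN 2, at 319 and 280 CPM. Without WT-BAPN 2 the direction of the list turned round: its median was 0.81, with 10 of 25 genes higher and none lower at that p, and Gbp3 was at 0.41 and Stat2 at -0.04. Mesothelium genes, which mark the lining of the chest and abdomen, had a median of 0.07, with none of 17 at that p. This median was -0.61 without KI-BAPN 3, -0.79 without KI-BAPN 2 and 3 and 0.69 without WT-BAPN 5. The list had summed levels between 370 and 1050 CPM in KI-BAPN and between 338 and 754 CPM in WT-BAPN. Of 15 tested Schwann cell genes, which mark nerve sheath, all had positive differences, with a median of 1.2 and 1 at an unadjusted p under 0.05; their summed level was between 257 and 558 CPM in KI-BAPN and between 281 and 366 CPM in WT-BAPN, and without KI-BAPN 5 the median was 0.40. All 6 tested genes of red blood cells had positive differences, 1 of them at that p; their summed level was between 123 and 3700 CPM in KI-BAPN and between 31.3 and 1760 CPM in WT-BAPN, and their median difference was 0.13 without KI-BAPN 3 and -0.64 without KI-BAPN 2 and 3. Of 18 adventitial fibroblast genes 17 had positive differences, none at that p, with a median of 0.33 and of 0.12 without KI-BAPN 6. The part of fat, lining, nerve, blood, fibroblast and immune cells in the differences of other lists was not tested.

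**Figure D4:**
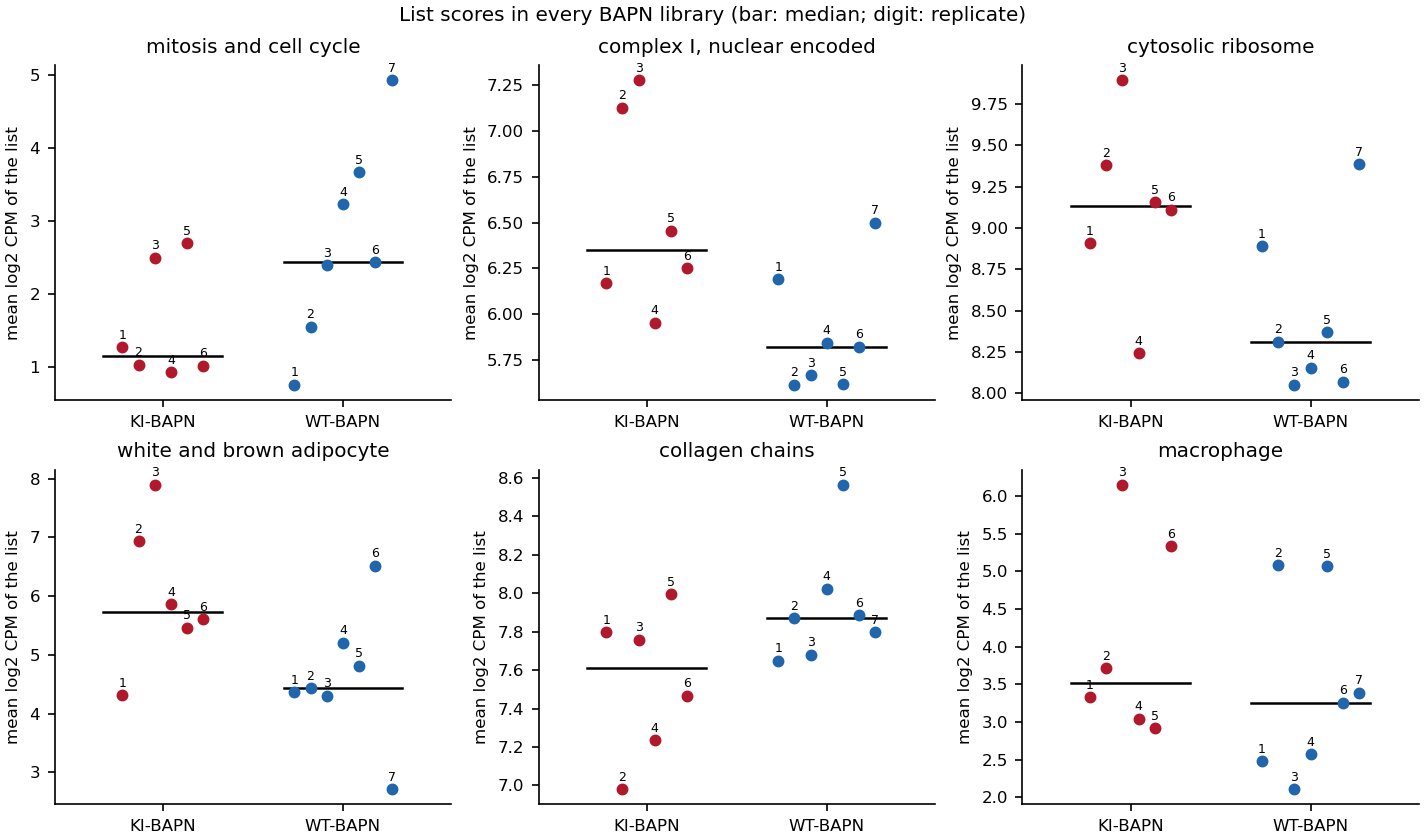
Mean log2 CPM of 6 gene lists in each BAPN library (digits are replicate numbers, bars are group medians), KI-BAPN left of WT-BAPN. KI-BAPN 3 and 2 are the highest libraries for complex I and adipocyte genes, WT-BAPN 7 is the highest for mitosis genes at 4.92, and the groups overlap in all 6 lists.

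**Figure D5:**
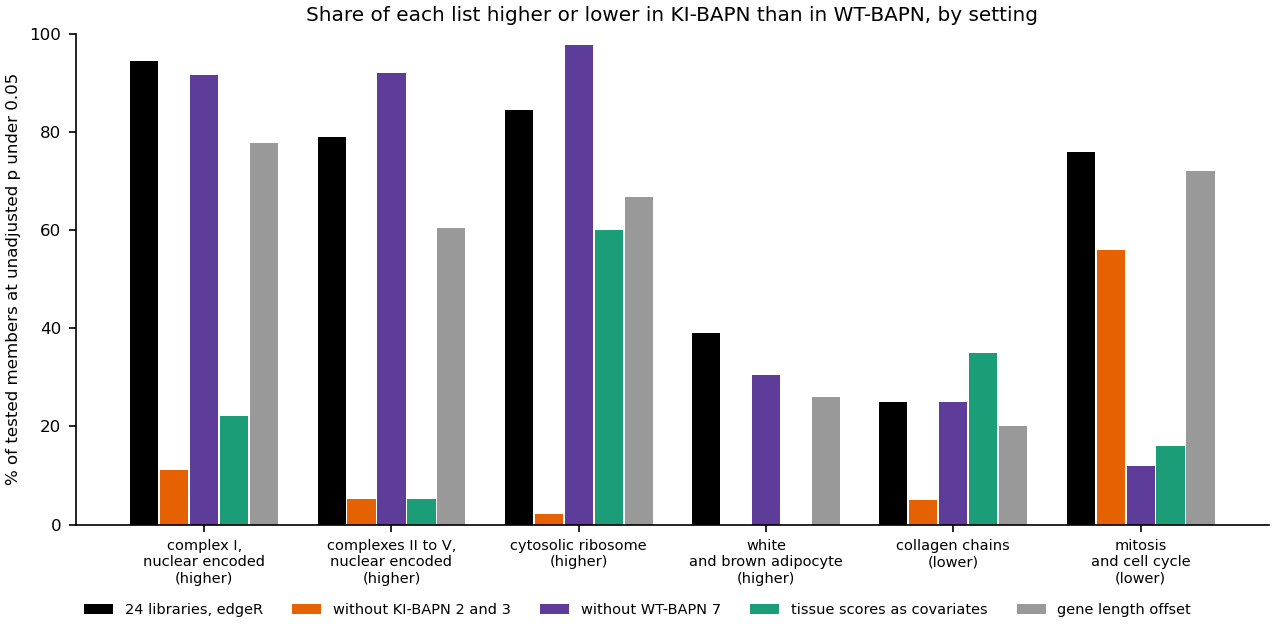
Share of tested members (y axis, %) of 6 lists at an unadjusted p under 0.05 in the direction named under each list, for 5 settings (colours). Without KI-BAPN 2 and 3 the counts were 4 of 36 complex I genes and 1 of 45 ribosomal proteins; without WT-BAPN 7, 3 of 25 mitosis genes.

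The number of genes past an adjusted p of 0.05 depended on the test. DESeq2 passed 28 genes, 24 higher and 4 lower, and all but Atad3a had adjusted p-values between 0.0441 and 0.0477. They included Rpl19 of the ribosome, Ndufa6 and Ndufa2 of complex I, Uqcr10, Cox5b, Cox6c and Cox8a of complexes III and IV, and Pink1, Acaa2 and Cidea. The lower genes included Nfat5, the factor of the osmotic response, Dusp11 and Tardbp. Without KI-BAPN 2 and 3, DESeq2 passed Atad3a alone. limma with voom and quality weights passed Atad3a, Cdk2 (-0.65, adjusted p = 0.0433) and Chrnb1 (-0.75, adjusted p = 0.0433).

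Whether the genotype difference itself depended on BAPN was tested as an interaction, the KI-BAPN minus WT-BAPN difference less that between KI and WT on plain water. No gene passed the edgeR test (smallest adjusted p = 0.280), while 2111 genes, or 14.8% of those tested, had an unadjusted p under 0.05. Among lists of cell types, this held for 12 of 19 sympathetic neuron genes and 9 of 11 T cell genes. It held for 8 of 8 B cell, 8 of 10 skeletal muscle and 0 of 20 endothelial genes. Skeletal muscle genes summed to 6546 CPM in the highest WT library, with a WT median of 38.4 CPM. The highest KI-BAPN and WT-BAPN libraries held 46.0 and 39.2 CPM. The part of such tissue in the interaction counts was not tested. DESeq2 passed 14 genes and limma 4, with Gli3, a transcription factor of the hedgehog pathway, and Ahsa1, a co-chaperone of Hsp90, among the genes of both; without KI-BAPN 2 and 3 DESeq2 passed 1. The lists' medians for KI over WT on plain water were 0.12 for complex I, 0.11 for complexes II to V, -0.08 for the cytosolic ribosome, -0.00 for collagen chains and -0.16 for mitosis genes. The library KI 5 was the highest on water for both respiratory lists, and without it their water medians were -0.14 and -0.20; that of collagen chains was then 0.19. The count over all genes at an unadjusted interaction p under 0.05 also changed with single libraries. With 1 of the 24 libraries left out at a time it was between 1483, without KI-BAPN 3, and 2911, without WT-BAPN 7. The list counts that follow are to be read beside this range. For the cytosolic ribosome, 18 of 45 genes had an unadjusted interaction p under 0.05, with a median interaction of 0.72. Without KI-BAPN 3 the count was 3, and leaving out 1 water library at a time gave counts between 5 and 26. For complex I the interaction median was 0.60 with 10 of 36 at that p. Without KI-BAPN 3 alone it was 0.42 with 1 at that p, and without KI-BAPN 2 alone 0.47 with 1. Leaving out 1 water library at a time gave counts between 1, without KI 2 or KI 3, and 28, without KI 5, where the median was 0.86. For macrophage genes the water median was -1.30 and the interaction median 2.18, with 11 of 23 at that p; without KI-BAPN 3 the interaction median was 1.35 with 2 at that p. The library WT 5 was the highest on water in macrophage genes, at a summed 3281 CPM, with the other WT libraries between 88.6 and 712 CPM. Without WT 5 the water median was -0.26, and 2 of 23 had an interaction p under 0.05. For mitosis genes the interaction median was -1.25 with 2 of 25 at that p. Without WT-BAPN 7 it was -0.64 with none, and without WT 5 it was -1.69 with 12, the water median then being 0.22. Both contrasts use separate libraries, but each interaction reads all 4 groups.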

How the data were processed

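Aortic poly(A) RNA of 24 male mice was sequenced, 13 of them on BAPN. The authors deposited a table of whole-number read counts per gene, not normalized, with a gene length column. Per the submitters' processing notes, Trim Galore, FastQC, HISAT2 and DESeq2 were used with GRCm38/mm10; the read counter, the annotation and the use of strand were not given in the sources used here. Samples were grouped by their genotype and treatment labels. The numbers of mice that the design text gives per group equal the numbers of libraries.

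Counts were fitted in edgeR 4.0.16 (R 4.3.3): TMM factors, filterByExpr by group, all 24 libraries with 1 mean per group and a shared spread, robust quasi-likelihood test, Benjamini-Hochberg adjustment over 14216 genes. The SE given after ± is the size of the log2 difference divided by the square root of the F value of the test. CPM uses TMM library sizes, and list scores average log2 CPM (prior count 2) over members. limma 3.58.1 and DESeq2 1.42.0 were alternatives, and figures were drawn with matplotlib. The tests were tested on simulated data. No 2 libraries of a group agreed within sampling noise (smallest chi-square per degree of freedom 41.7 over 36 pairs).

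Named genes were Atad3a, then up to 12 per direction by p among genes with at least 5 CPM in the higher group whose libraries lay beyond the other group's median, without predicted genes, and up to 4 genes by p of each list. Genes named only because DESeq2 or limma passed them were chosen after their values were seen. Members and lists were chosen with earlier results of these data known. A few genes that meet this rule are not reported here.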

Additional observations from a re-analysis of the deposited data

Results flagged for a closer look

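In groups of 6 or 7 libraries, the highest or lowest library was compared with its nearest neighbour by Dixon's ratio for the genes and lists named, and 13 of 250 such groups passed the 95% critical value, where chance flags about 1 in 20. KI-BAPN 3 was far above the other KI-BAPN libraries for Comp (352 CPM, others 28.4 to 72.4) and Scd1 (7970 CPM, others 369 to 1120). Among WT-BAPN libraries, WT-BAPN 2 was far above the others for Stat2 (319 CPM, others 19.7 to 43.7) and Gbp3 (280 CPM, others 2.88 to 20.3), and its mean log2 CPM of interferon-stimulated genes was 6.53, with the others at 1.85 to 3.71. WT-BAPN 5 stood out for Comp (86.7 CPM, others 31.2 to 41.7), for Gdf15 (15.2 CPM, others 1.14 to 2.46) and for collagen chains (8.56, others 7.65 to 8.02). WT-BAPN 6 stood out for Acaa2 (138 CPM, others 49.6 to 58.8) and for fatty acid oxidation genes (6.13, others 5.25 to 5.57). WT-BAPN 7 was above the others for Tbc1d5 (21.4 CPM, others 13.1 to 16) and below them for Mcoln1 (27.4 CPM, others 35.8 to 41.8), and WT-BAPN 1 was below the others for Lrrk2 (15.6 CPM, others 21.8 to 27.3).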

How the results depend on the processing

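Atad3a kept its direction and its side of the threshold under every alternative run, and without each BAPN library in turn its log2 difference was between 3.90 and 4.31. The count of genes past the threshold was 1 under every edgeR alternative, which covers other scalings and filters, no robust step, a length offset, tissue covariates, both other thresholds (adjusted p of 0.1 and 0.01) and each library left out, and the interaction count was 0 under those. DESeq2 gave 28 genes and limma with voom 3; for the interaction they gave 14 and 4, and DESeq2 without KI-BAPN 2 and 3 gave 1. The length offset and the settings that leave out KI-BAPN 2 and 3 were chosen after seeing the data, as was leaving out each water library for the water medians. KI-BAPN 2 and 3 were picked as the highest in short genes and adipocyte genes, so lower values of those genes without them were bound to follow. The count at an unadjusted p under 0.05 was 1983 with all libraries, 1001 without KI-BAPN 3, 1285 without KI-BAPN 2 and 431 without both. Of 93 differences of genes other than Atad3a, none of them past the threshold, 29 fell by over 1.5 times without 1 BAPN library, 15 of these without KI-BAPN 3, and 1, that of Gbp3, changed sign. Same-numbered KI-BAPN and WT-BAPN libraries did not deviate together, with correlations between -0.521 and 0.325 and none of 6 KI-BAPN libraries closest to its own number; with the replicate block 1 gene was called, Atad3a at 4.01, and 3 mitosis genes had an unadjusted p under 0.05. The cause of these changes was not tested. Groups of 6 and 7 libraries and lowly expressed genes, such as those of mitosis at a few CPM, limit what could be detected.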
